A study of Homo sapiens with 12 samples.

Results

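A total of 9 genes for proteins on the cell surface that antibody-drug conjugates bind, or that are close relatives of such a protein, were followed among the 60649 genes counted in SBC3 spheroids: NECTIN4, NECTIN1, NECTIN2, DLL3, CD276, SEZ6, ERBB2, ERBB3 and F3. The set was chosen because NECTIN4 was higher with each drug alone in these same libraries, so its levels against control are a description and carry no test. SBC3 is 1 established human small cell lung cancer line, and all 12 libraries came from it: 3 labelled as control, 3 as teriflunomide, 3 as lurbinectedin and 3 with both drugs, called the combination here. Teriflunomide blocks pyrimidine synthesis by inhibiting the enzyme DHODH, whereas lurbinectedin binds DNA and halts transcription. The study asked how teriflunomide acts together with chemotherapy in this cancer. Doses, exposure times and the solvent given to the control are not given in the sources used here, and nothing says that the 3 libraries of a group came from separate cultures, so p-values measure the spread between these libraries.

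An antibody-drug conjugate carries a toxic payload to cells that display its target, is taken up with the target and releases the payload inside, so the amount of target at the surface is one of the things that sets how much payload a cell receives. Nectins are adhesion molecules of the immunoglobulin superfamily that bind each other across cell contacts and attach to the actin skeleton through afadin. NECTIN4 is the target of enfortumab vedotin and is best known from urothelial cancer, while DLL3 and SEZ6 are targets pursued in neuroendocrine small cell lung cancer and CD276, a member of the B7 family of immune ligands, across many tumours. RNA levels, not protein at the surface, were measured here, and in bulk RNA fewer cells with a transcript and less transcript per cell cannot be told apart.

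Promoter windows are shown for the member that the set was chosen on, for F3, which rose with lurbinectedin, and for NECTIN2, which fell. The promoter table of RefSeq on GRCh38.p14 matched 5 of the 9 members. Each window starts 250 bases before the RefSeq start and ends before the first base that the files' annotation or GENCODE 29 places inside the gene. It is written 5′ to 3′ on the strand of the gene: chr1:161089600-161089808 on the minus strand for NECTIN4 (209 bases), chr1:94541801-94542009 on the minus strand for F3 (209 bases) and chr19:44846047-44846174 on the plus strand for NECTIN2 (128 bases). The windows of CD276 and ERBB2 lie within annotated exons or introns of those genes and are not shown. Capitals mark every match to the motifs searched.
NECTIN4: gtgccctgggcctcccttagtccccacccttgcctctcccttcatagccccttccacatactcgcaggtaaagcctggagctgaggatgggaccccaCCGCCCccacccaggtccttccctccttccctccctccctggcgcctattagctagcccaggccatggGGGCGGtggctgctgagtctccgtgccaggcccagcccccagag
F3: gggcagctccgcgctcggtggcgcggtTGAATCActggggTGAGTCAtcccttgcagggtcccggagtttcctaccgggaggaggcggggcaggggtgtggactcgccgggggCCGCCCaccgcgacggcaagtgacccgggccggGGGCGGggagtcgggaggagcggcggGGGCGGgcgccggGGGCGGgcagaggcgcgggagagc
NECTIN2: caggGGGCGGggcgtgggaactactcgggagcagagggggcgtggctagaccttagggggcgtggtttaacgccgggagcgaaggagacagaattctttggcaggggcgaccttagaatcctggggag

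Searched on both strands were the TATA box TATAAA, the CCAAT box CCAAT, the GC box GGGCGG, the AP-1 site TGANTCA, the cAMP response element TGACGTCA, the E-box CACGTG and the p53 half-site. The NECTIN4 window held 2 GC boxes, the F3 window 4 GC boxes and 2 AP-1 sites, and the NECTIN2 window 1 GC box. Of all 35116 promoter windows cut to the same 209 bases, 36.9% held a GC box and 5.58% an AP-1 site, and of those cut to the 128 bases of NECTIN2, 22% held a GC box. No other motif of the set was matched in these windows, which says only that those letters are not there. A match is a description of the sequence and not evidence of binding.

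On GRCh38 the files place the 2 relatives of NECTIN4 as NECTIN1 (ENSG00000110400.11) on chromosome 11 from 119623408 to 119729200, minus strand, and NECTIN2 (ENSG00000130202.10) on chromosome 19 from 44846175 to 44889223, plus strand. The immune ligand and the receptors lie elsewhere, CD276 (ENSG00000103855.18) on chromosome 15 from 73683966 to 73714514, plus strand, ERBB2 (ENSG00000141736.14) on chromosome 17 from 39687914 to 39730426, plus strand, and ERBB3 (ENSG00000065361.17) on chromosome 12 from 56076799 to 56103505, plus strand. The remaining members are DLL3 (ENSG00000090932.11) on chromosome 19 from 39498895 to 39508481, plus strand, SEZ6 (ENSG00000063015.20) on chromosome 17 from 28954901 to 29006440, minus strand, and F3 (ENSG00000117525.14) on chromosome 1 from 94529173 to 94541759, minus strand.

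Libraries held 23206414 to 33222162 counts. Library 3 of the teriflunomide group stood apart: its mitochondrial share of counts was 22.6%, against 8.42% and 8.43% in the other 2, and its counts differed from theirs by 256 to 274 times the sampling variance, where the other 2 differed by 3.49 times. Combination library 2 had a mitochondrial share of 24.9%, against 14.6% and 13.1% in its group. Of the markers of small cell lung cancer, INSM1, UCHL1 and GRP were at 0 CPM (counts per 1000000 of the TMM-scaled library size) in every control library, NCAM1 too, and EPCAM was at 0.0111 CPM in the mean, while YAP1 was at 246 ± 12 CPM (SD, n = 3), KRT8 at 243 ± 8.03, ENO2 at 38.5 ± 1.16 and SYP at 16.8 ± 0.765. The neuroendocrine markers INSM1, NCAM1, UCHL1 and GRP were thus at or near 0 in this line, whereas SYP and ENO2 were expressed.

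Among the 9 members the order of levels per kilobase of exon (RPKM) was not the same with and without lurbinectedin. NECTIN2 led in the control spheroids at 22.3 ± 0.434 RPKM (SD, n = 3), followed by CD276 at 14.1 ± 0.283 and NECTIN1 at 13.5 ± 0.884, whose libraries overlapped, and by ERBB2 at 7.96 ± 0.335. DLL3 at 0.747 and NECTIN4 at 0.700 also overlapped, and F3 at 0.333, ERBB3 at 0.136 and SEZ6 at 0.00225 followed in that order. NECTIN4 thus stood at rank 6. With lurbinectedin it stood at rank 1, at 21.1 ± 0.943 RPKM, and its lowest library, 20.4, lay above the highest NECTIN1 library, 17.5. NECTIN1 was then at 16.3, NECTIN2 at 14, CD276 at 8.15 and ERBB2 at 5.06 RPKM, each apart from the next. The combination had the same first 5 genes in the same order, with NECTIN1 at 16.6 and NECTIN2 at 15.5 RPKM overlapping. In the teriflunomide group NECTIN2 at 20.9, NECTIN1 at 16.5 and CD276 at 14.2 RPKM overlapped. NECTIN4 stood there at rank 5, at 2.14 ± 0.124 RPKM, below ERBB2 at 7.39 and above DLL3 at 0.504, and apart from both.

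**Figure D1:**
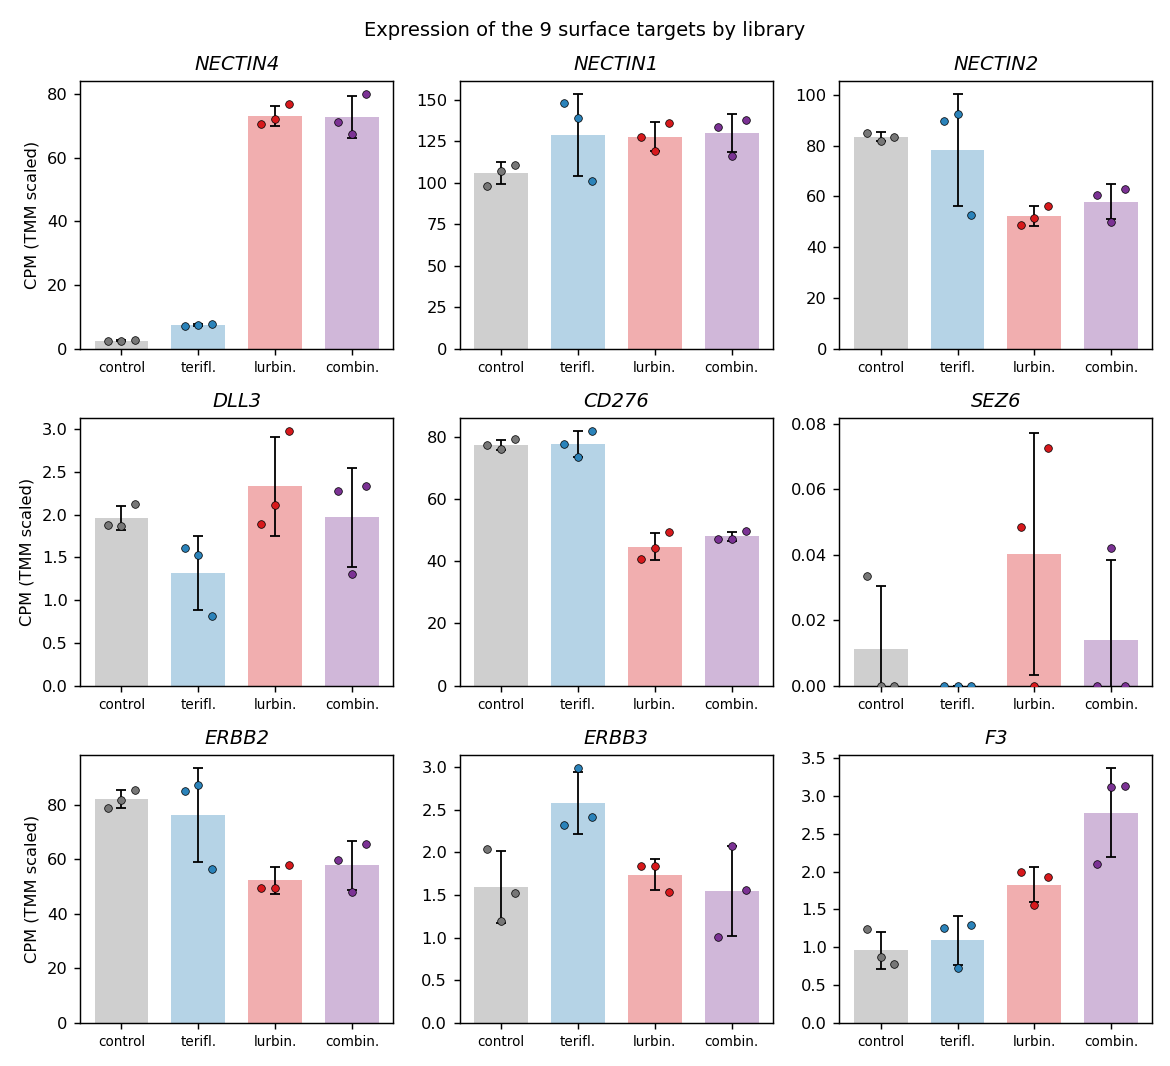
Expression of each of the 9 members in CPM (TMM scaled, linear axes from 0, a separate scale per gene). Points are libraries, bars the mean of 3 libraries and whiskers ± 1 SD, cut at 0 for SEZ6. NECTIN4 stood between 67.4 and 80.1 CPM in all 6 libraries with lurbinectedin and between 2.28 and 7.80 CPM in the 6 without, and library 3 of teriflunomide was the lowest of its group for NECTIN1, NECTIN2, DLL3 and ERBB2.

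NECTIN4 (ENSG00000143217.9, chromosome 1, 161070998 to 161089558, minus strand, GRCh38) was measured at 2.28, 2.44 and 2.54 CPM in the control libraries and at 6.95, 7.46 and 7.80 CPM with teriflunomide. The lurbinectedin libraries had 70.5, 72.1 and 76.8 CPM, and the combination libraries 71.2, 67.4 and 80.1 CPM. The control, teriflunomide and lurbinectedin libraries formed 3 separate ranges, while lurbinectedin and the combination overlapped. The log2 fold change was 1.61 (SE 0.123) for teriflunomide against control and 4.91 (SE 0.128) for lurbinectedin against control, and both values are those on which the gene was chosen. Of the 16683 genes that passed the expression filter, 8 of the 9 members among them, 113 had a higher log2 fold change with lurbinectedin. The mitochondrial share of counts was 13.8% to 17.0% in the lurbinectedin libraries and 6.26% to 7.17% in control, and its part in the changes with lurbinectedin was not tested. An antisense gene, NECTIN4-AS1, shares 3107 bases with NECTIN4, and its counts were 0 in 10 libraries and 1 in each of combination libraries 1 and 2.

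The combination was tested against each single drug, with the caution that the single-drug libraries had served in choosing NECTIN4. Against teriflunomide, NECTIN4 was higher with the combination by 3.30 on the log2 scale (SE 0.116, edgeR adjusted p = 7.81e-11), with means of 72.9 ± 6.57 and 7.40 ± 0.430 CPM (SD, n = 3). Against lurbinectedin the fitted difference was -0.00 (SE 0.103, 95% interval -0.23 to 0.22, edgeR adjusted p = 0.986). No difference between lurbinectedin with and without teriflunomide was detected for this gene, and a change within those limits is not excluded by the data. The interaction, which is the teriflunomide effect in the presence of lurbinectedin minus that in its absence, was -1.61 for NECTIN4 and is given without a test, since it holds the contrasts of the choice.

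Teriflunomide alone moved none of the other members past the threshold. By edgeR's quasi-likelihood test 0 of these 7 genes passed an adjusted p of 0.05 (2 had an unadjusted p under 0.05, and DESeq2 called 0), where 6.01% of all genes were called, 3.88% higher and 2.13% lower. Their median log2 fold change was 0.00, against 0.03 over all genes. The 2 with an unadjusted p under 0.05 were NECTIN1 and ERBB3.

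NECTIN1, an adhesion molecule and an entry receptor for herpes simplex virus, was at 98.0, 107 and 111 CPM in control and at 148, 139 and 101 CPM with teriflunomide. The third teriflunomide library fell within the control range and the other 2 lay above it. Its log2 fold change was 0.29 (SE 0.132, edgeR adjusted p = 0.191), and 0.44 (edgeR adjusted p = 0.00623) without teriflunomide library 3, so that library decides the call. ERBB3, a receptor of the EGF receptor family with a weak kinase that signals through its partners, was at 2.04, 1.2 and 1.52 CPM in control and at 2.32, 2.99 and 2.42 CPM with teriflunomide, groups that did not overlap, at a log2 fold change of 0.70 (SE 0.249 and edgeR adjusted p = 0.11).

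NECTIN2, ERBB2 and DLL3 were low in teriflunomide library 3. NECTIN2, a ligand of immune receptors on natural killer and T cells, was at 89.7, 92.5 and 52.8 CPM against 85.2, 81.9 and 83.6 CPM in control. ERBB2, the receptor tyrosine kinase HER2 that trastuzumab binds, was at 85.2, 87.3 and 56.4 CPM against 78.8, 82.0 and 85.7 CPM. Without that library the log2 fold change of NECTIN2 turned from -0.09 to 0.12 and that of ERBB2 from -0.11 to 0.07, none of them called. DLL3, an inhibitory Notch ligand, was at 1.61, 1.53 and 0.818 CPM against 1.88, 1.87 and 2.12 CPM. Its 2 groups did not overlap, and its log2 fold change was -0.56 (SE 0.281, edgeR adjusted p = 0.234), and -0.32 without library 3. The part of the high mitochondrial share of library 3 in these values was not tested.

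CD276 and F3 gave closer values. CD276 was at 77.7 ± 4.16 CPM with teriflunomide and at 77.4 ± 1.55 CPM in control (SD, n = 3), with a log2 fold change of 0.00 and a 95% interval of -0.21 to 0.22. F3, which encodes tissue factor, the starter of blood clotting and the target of tisotumab vedotin, was at 1.26, 0.719 and 1.29 CPM with teriflunomide and at 1.24, 0.869 and 0.777 CPM in control, at a log2 fold change of 0.18 (SE 0.283). At these levels the interval for F3, -0.43 to 0.79, is wide.

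Lurbinectedin lowered CD276, NECTIN2 and ERBB2 and raised F3. CPM is relative to the other genes of a library, so a change in the total RNA of the cells does not show in these values. Of the 7 members tested 1 was called higher, 3 lower and 3 were not called, against a background of 71.6% of all genes called, 36.0% higher and 35.7% lower. A call is therefore common in this comparison, and 4 of 7 does not set the members apart. Their median log2 fold change was 0.12, against 0.05 over all genes. Scaling by library size alone moved the median of all genes to -0.18 (-0.13 with the combination) and the higher share of the calls from 50.2% to 39.2%.

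CD276 had the smallest adjusted p of the 4. It was at 77.3, 76.0 and 79.1 CPM in control and at 40.6, 44.1 and 49.4 CPM with lurbinectedin, so that the groups did not overlap. Its log2 fold change was -0.79 (SE 0.0998, edgeR adjusted p = 6.65e-06). NECTIN2 was at 48.9, 51.6 and 56.4 CPM with lurbinectedin, below every control library, at a log2 fold change of -0.67 (SE 0.174 and edgeR adjusted p = 0.00315). ERBB2 was at 49.5, 49.4 and 57.8 CPM, likewise below every control library, at -0.65 (SE 0.160, edgeR adjusted p = 0.00226). ERBB2 shares 8884 bases with PGAP3 and 1931 bases with MIEN1 on the other strand, which had 62 to 235 and 350 to 692 counts per library. Strand use in counting is not given in the sources used here, so reads in the shared bases cannot be told apart.

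F3 rose from a low level. It was at 1.99, 1.56 and 1.93 CPM with lurbinectedin, above every control library, at a log2 fold change of 0.92 (SE 0.276 and edgeR adjusted p = 0.00814). In counts this was 41, 40 and 53 against 37, 26 and 26 in control.

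NECTIN1, DLL3 and ERBB3 were not called with lurbinectedin. NECTIN1 was at 128, 119 and 136 CPM, above every control library, at a log2 fold change of 0.27 (SE 0.133 and edgeR adjusted p = 0.0789). Without teriflunomide library 3, which enters through the shared estimate of the spread, its value was 0.26 with an edgeR adjusted p of 0.00918, and it was also called with only the groups compared and with a filter of 1 CPM in 3 libraries. NECTIN1 was not called under library size alone (0.04, edgeR adjusted p = 0.872) or without an expression filter (0.20, edgeR adjusted p = 0.284). With DESeq2 size factors it was not called either (0.25, edgeR adjusted p = 0.114). DLL3 was at 1.89, 2.11 and 2.98 CPM, at 0.26 (95% interval -0.33 to 0.85). ERBB3 was at 1.84, 1.84 and 1.53 CPM, at 0.12 (95% interval -0.45 to 0.69), and both overlapped control.

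SEZ6, a membrane protein of neurons and neuroendocrine tumours, failed the expression filter and was not tested. Its counts were 1, 0 and 0 in control, 0, 0 and 0 in the teriflunomide group, 1, 0 and 2 in the lurbinectedin group and 0, 1 and 0 in the combination group. The 0 counts with teriflunomide allow up to 0.031 CPM (3 counts over the group), or 0.0381 CPM by the exact 95% Poisson interval. The exact 95% Poisson interval of the 3 counts with lurbinectedin ran from 0.00839 to 0.119 CPM. These limits cover counting error only. All 51540 bases of SEZ6 lie within the span of PIPOX on the other strand, which had 26 to 174 counts per library.

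With the combination the calls against control fell on F3, higher, and on CD276, NECTIN2 and ERBB2, lower. That is 1 higher, 3 lower and 3 not called of 7, where 68.4% of all genes were called, 34.1% higher and 34.4% lower. This comparison shares its control libraries with the one above and is no separate evidence. F3 was at 2.10, 3.12 and 3.13 CPM, above every control library, at a log2 fold change of 1.53 (SE 0.264 and edgeR adjusted p = 0.000148). CD276 was at 47.1, 47.2 and 49.8 CPM, at -0.69 (SE 0.0995, edgeR adjusted p = 2.86e-05). NECTIN2 was at 60.7, 50 and 63 CPM, at -0.53 (edgeR adjusted p = 0.0147), and ERBB2 at 59.7, 48.2 and 65.6 CPM, at -0.51 (edgeR adjusted p = 0.012). Both were lowest in combination library 2, and without it they were -0.44 (edgeR adjusted p = 0.0685) and -0.40 (edgeR adjusted p = 0.0606) and no longer called.

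NECTIN1, DLL3 and ERBB3 gave no call with the combination. NECTIN1 was at 134, 116 and 138 CPM, above every control library, at a log2 fold change of 0.30 (SE 0.132 and edgeR adjusted p = 0.0613). It was called without teriflunomide library 3 (0.29, edgeR adjusted p = 0.00462) and without combination library 2 (0.36, edgeR adjusted p = 0.0482). It was also called with only the groups compared (0.31, edgeR adjusted p = 0.0113) and at 1 CPM in 3 libraries (0.34, edgeR adjusted p = 0.0311). NECTIN1 was not called under library size alone (0.14, edgeR adjusted p = 0.57) or without an expression filter (0.24, edgeR adjusted p = 0.179). With DESeq2 size factors it was not called either (0.28, edgeR adjusted p = 0.0779). DLL3 was at 2.28, 1.31 and 2.33 CPM and ERBB3 at 1.01, 2.07 and 1.56 CPM. Both overlapped control, at 0.02 (95% interval -0.57 to 0.61) and -0.05 (95% interval -0.62 to 0.52).

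**Figure D2:**
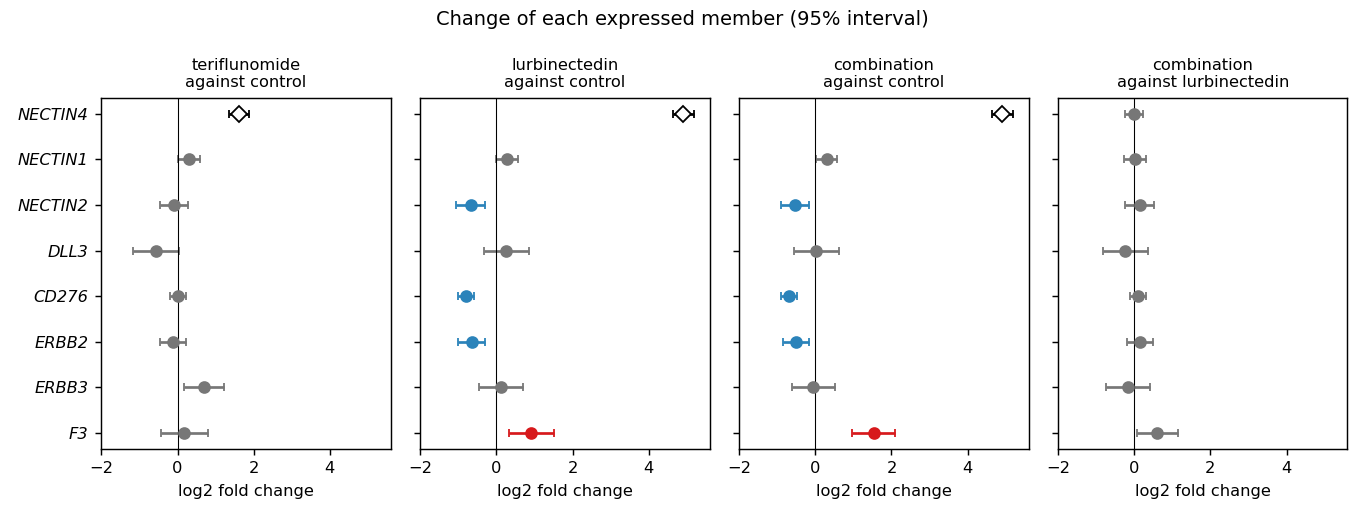
Log2 fold change of the 8 expressed members in 4 comparisons, with 95% intervals from the edgeR fit. Red points were called higher, blue lower and grey not called, and open diamonds mark NECTIN4 where it was not tested. NECTIN4 stood at 1.61, 4.91 and 4.91 against control and at -0.00 between the combination and lurbinectedin, where no member was called.

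Adding teriflunomide to lurbinectedin changed no member past the threshold. By edgeR's test 0 of 8 were called, as were 0 of all 16683 genes (0% of the background, smallest adjusted p 0.145). Of the members 1 had an unadjusted p under 0.05 and DESeq2 called 0, while over all genes 2599 had an unadjusted p under 0.05 and DESeq2 called 558. Without teriflunomide library 3 edgeR called 2067 genes and without combination library 2 it called 259, none of them a member. That 1 member was F3, at a log2 fold change of 0.61 (SE 0.252, 95% interval 0.07 to 1.15, edgeR adjusted p = 0.278), with all 3 combination libraries above all 3 of lurbinectedin. For CD276 and NECTIN1 the 95% intervals were -0.11 to 0.32 and -0.26 to 0.31. For NECTIN2 and ERBB2 they were -0.23 to 0.52 and -0.20 to 0.49, and for DLL3 and ERBB3 -0.83 to 0.36 and -0.75 to 0.41.

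Between the combination and teriflunomide 2 of 8 members were higher with the combination, NECTIN4 and F3, and 4 were lower, against 70.9% of all genes called, 35.2% higher and 35.8% lower. NECTIN4 was chosen on its rise with each drug alone, which uses these teriflunomide libraries, so its call adds no independent support to this count. F3 differed by 1.35 on the log2 scale (SE 0.259, edgeR adjusted p = 0.000341) and CD276 by -0.69 (SE 0.0995, edgeR adjusted p = 2.51e-05). ERBB3 was lower by -0.74 (SE 0.253, edgeR adjusted p = 0.0171), a call lost without teriflunomide library 2 (-0.63, edgeR adjusted p = 0.0617) or combination library 1 (-0.51, edgeR adjusted p = 0.0874). NECTIN2 at -0.43 (edgeR adjusted p = 0.0364) and ERBB2 at -0.40 (edgeR adjusted p = 0.0374) were not called when 1 library was left out in 7 and 6 of 12 fits (teriflunomide 1 and 2, combination 1 and 2 and lurbinectedin 1 and 2 for both genes, and lurbinectedin 3 for NECTIN2), at edgeR adjusted p of up to 0.148 and 0.164. Without teriflunomide library 3 they were -0.66 (edgeR adjusted p = 8.1e-06) and -0.58 (edgeR adjusted p = 0.000124). DLL3, at 0.58 (edgeR adjusted p = 0.0809), was called without combination library 2 (0.79, edgeR adjusted p = 0.0227), and NECTIN1 stood at 0.00 (95% interval -0.28 to 0.29).

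The interaction was called for 0 of the 7 members tested (1 had an unadjusted p under 0.05, and DESeq2 called 0), against 0.258% of all genes. The 1 member was ERBB3, at -0.87 (SE 0.366, edgeR adjusted p = 0.427). Of the 43 genes called 14% were higher, and under scaling by library size alone 33.3% of 6.

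Within the nectin family the make-up of the transcripts changed with lurbinectedin. Part of this is the rise of NECTIN4 on which the set was chosen, so the shares are a description and no separate evidence. Of the summed RPKM of NECTIN1, NECTIN2, NECTIN3, NECTIN4 and PVR, NECTIN4 took 1.56% ± 0.0547 in control and 4.51% ± 1.12 in the teriflunomide group (SD, n = 3). Its share was 31.2% ± 0.862 under lurbinectedin alone and 30.6% ± 0.983 in the combination group. NECTIN2 took 49.8% ± 1.64 in control and 20.6% ± 1.08 with lurbinectedin, and NECTIN1 30.1% ± 1.42 and 24.0% ± 0.740. PVR took 14.4% ± 0.235 and 22.9% ± 1.87, and NECTIN3 4.2% ± 0.134 and 1.28% ± 0.019. A share can fall because another gene in the sum rose. NECTIN1 fell in share although its level was 13.5 RPKM in control and 16.3 RPKM with lurbinectedin. The share of NECTIN4 was 3.70%, 4.04% and 5.78% in the 3 teriflunomide libraries, highest in library 3, where NECTIN2 took 36.2%.

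**Figure D3:**
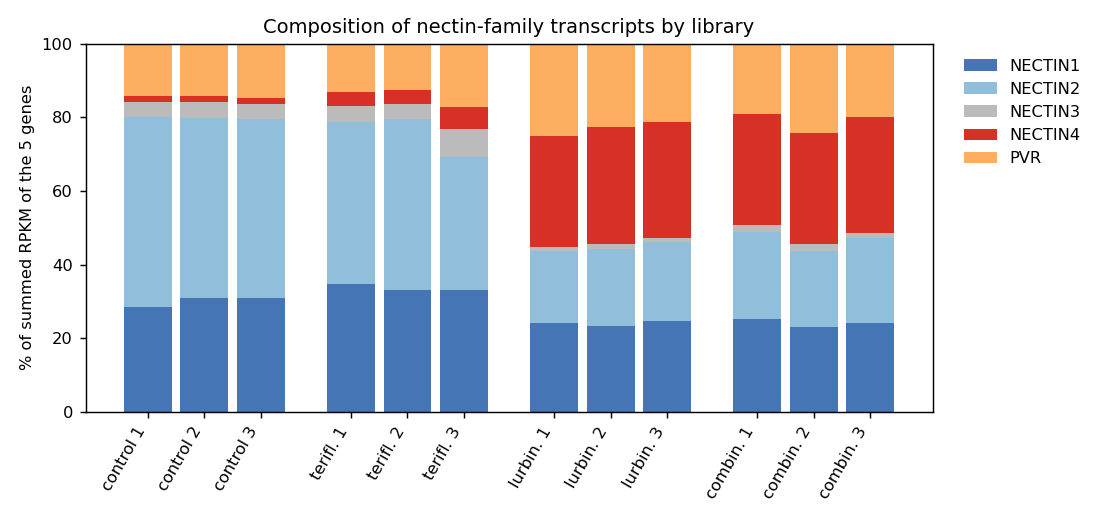
Percent of the summed RPKM of NECTIN1, NECTIN2, NECTIN3, NECTIN4 and PVR taken by each gene, 1 bar per library. NECTIN4 took 1.5% to 1.6% in the control libraries and 30% to 31.9% in the 6 libraries with lurbinectedin. The set was chosen on the rise of NECTIN4 with each drug alone in these libraries.

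A list of 12 relatives and partners of the nectins had 6 members that passed the filter, and with lurbinectedin 1 of these was higher and 5 lower, where 71.6% of all genes were called, 36.0% higher and 35.7% lower. Their median log2 fold change was -1.51, against 0.05 over all genes. PVR, the poliovirus receptor and a ligand of TIGIT, was at 38.3, 38.5 and 41.0 CPM in control and at 103, 89.4 and 91.8 CPM with lurbinectedin, at a log2 fold change of 1.27 (SE 0.103 and edgeR adjusted p = 7.74e-08). NECTIN3, which pairs with the other nectins, fell from 14.5 ± 0.536 to 6.72 ± 0.252 CPM (SD, n = 3; edgeR adjusted p = 8.96e-05). AFDN, which encodes afadin, fell from 164 ± 7.29 to 43.8 ± 3.72 CPM, and PARD3, a polarity protein recruited to nectin contacts, from 71.7 ± 3.90 to 0.913 ± 0.146 CPM. CADM4, a nectin-like molecule, and TIGIT, the lymphocyte receptor for nectins, were the other 2 called lower, the latter from 0.614 CPM. TIGIT reached the CPM cutoff of the expression filter in 0 of the 3 lurbinectedin libraries and passed through the groups where it is high. Teriflunomide raised 1 of the 6, TIGIT, at 0.86 (edgeR adjusted p = 0.0435), and 0 without teriflunomide library 3. Over all genes 6.01% (1002 genes) were called with teriflunomide, and 1555 genes without that library. The call of TIGIT was lost in 9 of the 12 fits that each left out 1 library.

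The genomic span of a gene, from its first to its last exon, went with its change under lurbinectedin across all genes. When the tested nuclear genes were put in 5 equal classes by span, the median log2 fold change was 0.69 in the shortest and -1.86 in the longest. NECTIN4 spans 18.6 kb and belongs to the third class, with a median of 0.28, in which 11 of 3330 genes had a higher value. NECTIN1 spans 106 kb and belongs to the longest class, and its 0.27 lay above 92.6% of that class. CD276, in the third class, had 12.4% of its class below it, while NECTIN2 and ERBB2, in the fourth with a median of -0.36, had 36.3% and 37.3% below them. F3 and DLL3 were in the second class, median 0.62, with 64.0% and 34.8% below them. These positions are descriptions, and their part in the members' changes was not tested. Medians of the gene lists, such as -1.51 for the relatives and partners of the nectins, were set against all genes without regard to span. The part of span in them was not tested.

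**Figure D4:**
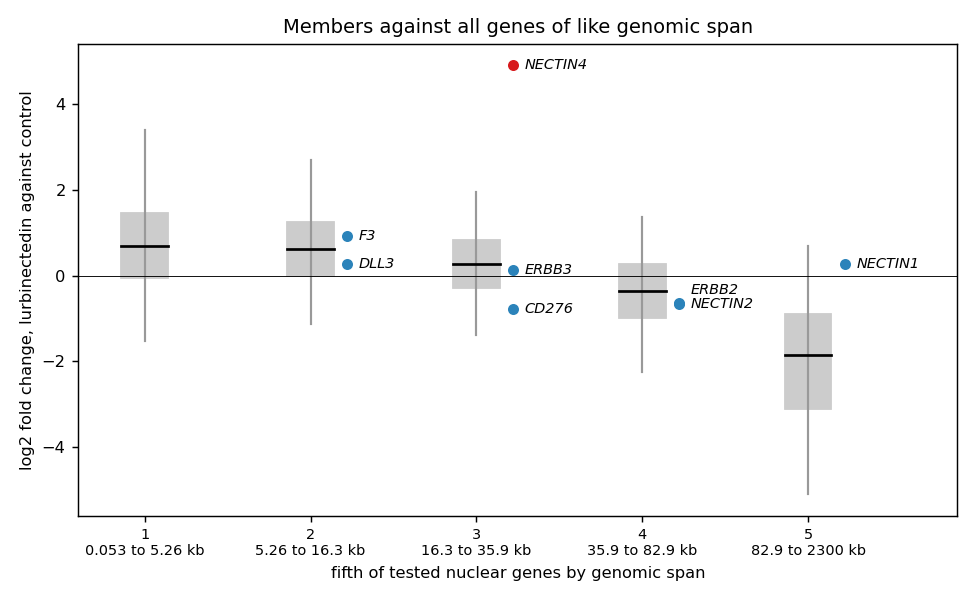
Log2 fold change of lurbinectedin against control by class of genomic span, with the span range of each class in kb under the axis. Boxes hold the middle 50% of genes, bars in the boxes the median and lines the 5th to 95th percentile, and points are the 8 expressed members. NECTIN4, at 4.91, lies above the range drawn for its class, and NECTIN1, at 0.27, above the box of the longest class.

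Of the EGF receptor family and its ligands and adaptors, 12 of 18 passed the filter, and with lurbinectedin 3 were higher and 7 lower, where 71.6% of all genes were called, 36.0% higher and 35.7% lower. Their median log2 fold change was -0.91, against 0.05 over all genes. Among the 3, AREG reached the filter's cutoff in 0 of 3 control libraries and passed through the groups where it is high, and among the 7, NRG2 did so in 0 of 3 lurbinectedin libraries. EGFR, the founding receptor of the family that ERBB2 and ERBB3 pair with, was at 17.9, 19.4 and 19.1 CPM in control and at 2.08, 2.31 and 2.18 CPM with lurbinectedin, at a log2 fold change of -3.10 (SE 0.219 and edgeR adjusted p = 2.11e-08). HBEGF, a ligand of EGFR, was at 1.71, 2.07 and 2.30 CPM in control and at 64.3, 58.4 and 57.4 CPM with lurbinectedin, at 4.88 (SE 0.225, edgeR adjusted p = 4.25e-10). The value for NECTIN4 was 4.91. LRIG1, a negative regulator of the family, fell by 3.93 on the log2 scale from 8.70 ± 0.217 CPM (SD, n = 3; edgeR adjusted p = 8.23e-09). ERBB4 was at 0.0869 CPM in control and failed the filter. Teriflunomide, with 6.01% of all genes called, raised 2, TGFA at 0.83 (edgeR adjusted p = 0.0385) and ERRFI1 at 0.45, and lowered 1, SHC1 at -0.48 (edgeR adjusted p = 0.0373). When 1 library was left out these calls were lost in 6, 9 and 7 of 12 fits, at edgeR adjusted p of up to 0.17, 0.17 and 0.155.

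Around DLL3, 7 of 10 Notch ligands and subtype factors of small cell lung cancer were tested, with 2 higher and 2 lower under lurbinectedin and a median of 0.19. The 4 of 7 called stand beside 71.6% of all genes, 36.0% higher and 35.7% lower, whose median was 0.05. DLL4, an activating ligand, rose from 0.840 ± 0.0958 to 7.86 ± 1.12 CPM (SD, n = 3; log2 fold change 3.22, edgeR adjusted p = 7.06e-09), and DLL1 from 3.95 ± 0.172 to 5.63 ± 0.724 CPM (0.52, edgeR adjusted p = 0.0157). YAP1 fell from 246 to 64.9 CPM (-1.92, edgeR adjusted p = 1.28e-07) and NEUROD1 from 4.03 to 1.62 CPM (-1.31, edgeR adjusted p = 0.000151). Both also belong to a list of 14 identity markers, of which 6 were tested, 4 higher and 2 lower, at a median of 0.82. In that list SYP rose from 16.8 to 30.9 CPM, ENO2 from 38.5 to 69.6 CPM and KRT8 from 243 to 422 CPM. Of the 4 higher, 1 reached the filter's cutoff in 0 control libraries and passed through the groups where it is high. Teriflunomide lowered 1 of the 7 Notch ligands and subtype factors, JAG2, from 57.6 to 33.4 CPM (-0.79, edgeR adjusted p = 0.0307). With teriflunomide 6.01% of all genes were called. The call of DLL1 was lost without control library 2 or lurbinectedin library 3 (edgeR adjusted p up to 0.0927), and that of JAG2 without any 1 of the 3 control or 3 lurbinectedin libraries (up to 0.123). Of the relatives of SEZ6, SEZ6L2 fell with lurbinectedin from 54.7 ± 1.75 to 21.3 ± 2.08 CPM (SD, n = 3; edgeR adjusted p = 1.71e-05), and SEZ6L had 0 CPM in every control library.

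Of the B7 family around CD276, 5 of 10 genes were tested, and with lurbinectedin 3 were higher and 1 lower, at a median of 0.48. Over all genes 71.6% were called, 36.0% higher and 35.7% lower, at a median of 0.05. CD276 itself, counted apart, moved down. ICOSLG, the ligand of the T cell receptor ICOS, rose from 0.552 ± 0.127 to 3.42 ± 0.261 CPM (SD, n = 3; edgeR adjusted p = 1.65e-07). CD86, a costimulatory ligand, fell from 3.27 ± 0.164 to 0.375 ± 0.23 CPM (SD, n = 3; edgeR adjusted p = 8.45e-07). The other 2 called higher were NCR3LG1, at 0.30, and CD274, which encodes PD-L1 and reached at most 0.626 CPM with lurbinectedin, in libraries that overlapped control. CD274 reached the filter's cutoff in 0 of 6 libraries without lurbinectedin and passed only through the groups where it is high, so its call is tied to the filter. The call of NCR3LG1 was lost in 8 of 12 fits that left out 1 library and that of CD274 without control library 1 or lurbinectedin library 1 or 2 (edgeR adjusted p up to 0.142 and 0.126). Teriflunomide changed 0 of the 5, where 6.01% of all genes (1002) were called. Of the 5, 1 was higher without teriflunomide library 3, a fit that called 1555 of all genes, and 1 lower without combination library 2.

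Of the genes around tissue factor, 6 of 13 were tested, and with lurbinectedin 3 were called higher and 0 lower, at a median of 0.93. This is fewer than the 71.6% of all genes called, 36.0% higher and 35.7% lower, and 1 of the 3 reached the filter's cutoff in 0 of 3 control libraries and passed through the groups where it is high. PROCR, the endothelial protein C receptor, rose from 6.35 ± 0.238 to 47.3 ± 3.30 CPM and PLAU, which encodes urokinase, from 1.21 ± 0.157 to 3.69 ± 0.312 CPM (SD, n = 3). Without teriflunomide library 3, 2 more were called, lower: TFPI2 and F2R. PLAU was also the 1 gene of this list raised by teriflunomide, at 0.95 (edgeR adjusted p = 0.0183), where 6.01% of all genes were called. Without teriflunomide library 3, 2 of the list were called with teriflunomide. Over all genes that fit called 1555, against 1002 with all libraries. The call of PLAU was lost without any 1 control library or teriflunomide library 2 (edgeR adjusted p up to 0.0979).

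Among 49 other targets of antibody-drug conjugates, 26 passed the filter, and lurbinectedin raised 11 and lowered 11, where 71.6% of all genes were called, 36.0% higher and 35.7% lower. Their median log2 fold change was 0.21, against 0.05 over all genes. Of the 11 that fell, CDH6, GPC3 and ROR1 reached the filter's cutoff in 0 of 6 libraries with lurbinectedin. When 1 library was left out, the call of LY6E, higher, was lost in 8 of 12 fits and that of CD46, lower, in 5 (edgeR adjusted p up to 0.115 and 0.0918). EPHA2, an ephrin receptor, was at 48.8, 43.4 and 47.7 CPM in control and at 498, 470 and 506 CPM with lurbinectedin, at a log2 fold change of 3.40 (SE 0.192 and edgeR adjusted p = 2.47e-09). AXL, a receptor kinase, rose from 13.3 ± 0.897 to 43.8 ± 1.79 CPM (SD, n = 3; edgeR adjusted p = 7.67e-08). EGFR, also counted in the EGF receptor list, was among those that fell. Teriflunomide, with 6.01% of all genes called, raised 2, SSTR2 at 0.58 (edgeR adjusted p = 0.0368) and CDH6 at 1.64 (edgeR adjusted p = 0.0363), calls lost in 8 and 9 of 12 fits that left out 1 library (edgeR adjusted p up to 0.166 and 0.164). CDH6 reached the filter's cutoff in 3 teriflunomide libraries and 1 control library and passed only through the group where it is high, so its call is tied to the filter. Without teriflunomide library 3 there were 6, with EPHA2, GPC1, EGFR and AXL added, and without combination library 2 there were 3 higher and 1 lower. Over all genes 1555 were called without teriflunomide library 3, against 1002 with all libraries.

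**Figure D5:**
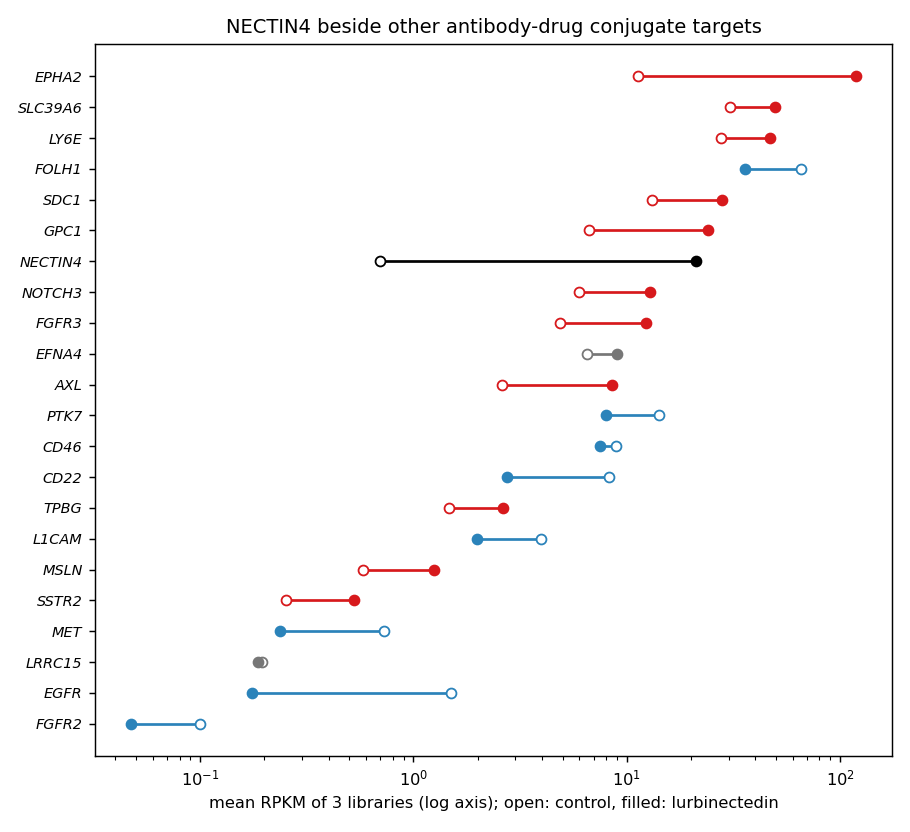
Mean RPKM of 3 libraries in control (open) and with lurbinectedin (filled) on a log axis, for NECTIN4 (black) and 21 other targets of antibody-drug conjugates with a mean of at least 1 CPM in some group, red if called higher, blue lower and grey not called. NECTIN4 moved from 0.700 to 21.1 RPKM. ROR1, at 0 counts with lurbinectedin (which allows up to 0.0407 CPM, 3 counts over the group), is not drawn.

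Genes with a course over the 12 libraries most like that of NECTIN4 were sought by Pearson correlation of log2 CPM among 13304 genes with a mean of at least 1 CPM. The 5 nearest were GRHL3 (r = 0.999), INKA2 (0.998), POLH (0.998), DRAM1 (0.997) and BTG2 (0.997). As many as 715 genes had r above 0.95, and the points share the same libraries and the same large step between groups. GRHL3, an epithelial transcription factor, was at 0.160 ± 0.0234 CPM in control, 0.653 ± 0.0756 in the teriflunomide group, 6.69 ± 0.158 in the lurbinectedin group and 6.81 ± 0.554 in the combination group (SD, n = 3). POLH, a DNA polymerase that copies past damaged bases, was at 33.8, 53.4, 144 and 143 CPM in the same order. BTG2, an antiproliferative factor, was at 31.1, 76.3, 687 and 648 CPM. Among the members F3 had r = 0.838 with NECTIN4, while CD276 had -0.938, ERBB2 -0.807 and NECTIN2 -0.79.

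Markers of other cell types, 10 in all, summed to 276 to 288 CPM in the control libraries and 262 to 283 CPM in those of teriflunomide. The sum was 119 to 134 CPM in the lurbinectedin libraries and 118 to 132 CPM in those of the combination. COL1A1, a collagen of fibroblasts that tumour lines may also make, gave most of the sum, at 266 ± 6.60 CPM in control and 107 ± 9.26 with lurbinectedin (SD, n = 3). ACTA2, the actin of smooth muscle and contractile fibroblasts, went the other way. It was at 12.5, 14.5 and 13.7 CPM in control and at 27.3, 29.7 and 30.5 CPM with teriflunomide, groups that did not overlap (log2 fold change 1.10, edgeR adjusted p = 0.000374). With lurbinectedin it was at 20.8 CPM in the mean and with the combination at 23.7 CPM, higher than control by 0.62 and 0.80 on the log2 scale (edgeR adjusted p = 0.000416 and 4.37e-05), which the sums do not show. CD3E was the 1 marker at 0 in every library. Their part in the members' changes was not tested.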

How the data were processed

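RNA was sequenced from 12 SBC3 spheroid libraries, 3 in each of 4 groups taken from the treatment label. Per the labels' protocols, total RNA came from RNeasy Plus Mini columns and was turned into libraries by KAPA mRNA HyperPrep. The authors deposited unnormalised counts for every gene, and per the submitters' processing notes the tools were fastp 0.23.2, STAR 2.7.9 and featureCounts of Subread on hg38. The annotation release and the use of strand are not given in the sources used here. All 37318 gene identifiers with the same version in GENCODE 29 had identical coordinates, and 60507 of 60649 identifiers (99.8%) had a symbol.

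Genes were kept by filterByExpr (16683 genes), scaled by TMM and fitted with edgeR 4.0.16 in R 4.3.3 by a robust quasi-likelihood model with 1 mean per group over all 12 libraries (biological coefficient of variation 14.5%). P-values of 6 contrasts were adjusted by Benjamini-Hochberg over all genes tested, and a gene was called under 0.05. Standard errors come from the F statistic and 95% intervals from the t distribution with the fit's degrees of freedom. CPM uses TMM library sizes, and RPKM divides it by exon length from the files. Log2 CPM used a prior count of 2. The script was tested on simulated data.

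The members, the 12 gene lists and the tests were chosen with earlier results of these data known. Named beside the members were family members, and in each list at most 3 genes with a mean of at least 1 CPM in some group and the smallest adjusted p with lurbinectedin and 2 with teriflunomide. Genes that complete a count of 5 or fewer, those called only without 1 library, and LY6E and CD46 were named after their values were seen. Values of 2 list genes are not reported here. Alternatives were DESeq2 size factors, library size alone, no expression filter, at least 1 CPM in 3 libraries, a replicate block, only the groups compared, DESeq2 1.42.0, an adjusted p under 0.01, CPM without TMM and leaving out each library. The list counts without teriflunomide library 3 and without combination library 2 were added after seeing the data.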

Additional observations from a re-analysis of the deposited data

How the results depend on the processing

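Of 951 recomputed log2 fold changes of members, 860 kept direction and side of the threshold. Of the rest, 30 lost the call, 9 gained it, 47 changed sign and 5 moved. The 5 were values of NECTIN4 without a test, outside the range of the fits that each left out 1 library. Under library size alone they were 1.53 with teriflunomide (range 1.57 to 1.65), 4.68 with lurbinectedin (4.87 to 4.95), 4.75 with the combination (4.84 to 4.96) and -1.45 for the interaction (-1.69 to -1.55). Without an expression filter the value with lurbinectedin was 4.84.

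The number of genes called with teriflunomide against control, 1002, became 265 under library size alone, 1800 without a filter, 283 with only the groups compared, 1796 with DESeq2, 230 at an adjusted p under 0.01 and 216 to 1555 when 1 library was left out. The interaction, 43, became 6, 195, 226 (DESeq2) and 5 in those fits and 2 to 616 when 1 library was left out. The combination against lurbinectedin, 0, became 612 without a filter, 94 with only the groups compared, 558 with DESeq2 and 0 to 2067 when 1 library was left out. The high ends of 1555, 616 and 2067 came without teriflunomide library 3, and the low end of 216 without control library 3. The cause of these moves was not tested.

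Sign changes were all of values near 0 that were not called. NECTIN4 between the combination and lurbinectedin was 0.07 under library size alone, 0.01 with DESeq2 size factors, without a filter and with DESeq2, 0.00 with only the groups compared, and -0.08 to 0.05 when 1 library was left out. NECTIN1 was -0.09 under library size alone, -0.03 without a filter and -0.02 with DESeq2 between the combination and teriflunomide (-0.15 to 0.10 leaving out 1 library), and -0.03 to 0.10 leaving out 1 library between the combination and lurbinectedin. CD276 with teriflunomide was -0.08 under library size alone, -0.01 with DESeq2 size factors and with DESeq2, -0.02 without a filter and with only the groups compared, and -0.04 to 0.05 leaving out 1 library. DLL3 with the combination was -0.12 under library size alone, -0.03 without a filter, -0.01 with DESeq2 and -0.11 to 0.23 leaving out 1 library. ERBB3 was -0.11 under library size alone with lurbinectedin (-0.04 to 0.33 leaving out 1 library), 0.00 at 1 CPM in 3 libraries with the combination (-0.30 to 0.18), and -0.41 to 0.07 leaving out 1 library between the combination and lurbinectedin. Leaving out 1 library gave -0.23 to 0.12 for NECTIN2 and -0.21 to 0.07 for ERBB2 with teriflunomide.

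Groups share replicate numbers. The 18 same-numbered pairs correlated at -0.402 to 0.144 in their deviations from group means, 1 of them over 0.1, and differently numbered pairs reached 0.363. With 3 libraries per group such deviations can neither show nor exclude a shared culture or day, and the main fit used no pairing. A replicate block gave 415 genes with teriflunomide and 8 for the interaction, and the calls of NECTIN2 and ERBB2 between the combination and teriflunomide were not made with it (edgeR adjusted p = 0.0644 and 0.0623).

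DLL3, ERBB3 and F3, at 24 to 100 counts per library, are limited by depth, and SEZ6 cannot be compared.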

Other observations

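Of 18 genes of uptake and lysosomal processing, which handle conjugates after binding, 16 were tested with lurbinectedin, 7 higher and 5 lower, where 71.6% of all genes were called, 36.0% higher and 35.7% lower, at a median log2 fold change of 0.19 against 0.05 over all genes. LGMN, the lysosomal protease legumain, rose from 50.8 ± 0.885 to 161 ± 8.41 CPM (SD, n = 3; log2 fold change 1.66, edgeR adjusted p = 2.72e-09), and CAVIN1, a caveolar coat protein, from 15.1 ± 0.493 to 45.2 ± 1.30 CPM (edgeR adjusted p = 7.82e-08). DNM2, the dynamin that pinches off endocytic vesicles, fell from 142 ± 2.33 to 35.4 ± 1.26 CPM (SD, n = 3; log2 fold change -2.0, edgeR adjusted p = 1.45e-08). Of 9 proteases and cofactors that shed surface proteins 7 were tested, 2 higher and 3 lower, a share near those 71.6%. ADAM10 fell from 127 ± 5.9 to 24.2 ± 3.85 CPM and ADAM9 from 99.1 ± 2.22 to 18.4 ± 1.37 CPM, while RHBDF1, a partner of ADAM17, rose from 10.1 ± 0.703 to 38.4 ± 0.322 CPM (SD, n = 3). Of the adherens junction core 8 of 10 were tested, 3 higher and 3 lower, again near 71.6%. CTNNA1, which encodes alpha-catenin, fell from 141 to 25 CPM, and CDH2, which encodes N-cadherin, from 43.7 to 4.54 CPM. CDH3 went the other way, from 2.26 to 4.75 CPM. CDH1, which encodes E-cadherin, was at 0.0223 CPM in control and failed the filter.

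The expressed genes beside NECTIN4 on chromosome 1 did not all move with it. ARHGAP30, whose nearest end lies 1027 bases from the end of NECTIN4 on the same strand, was at 0.101, 0.0334 and 0.179 CPM in control and at 1.26, 1.52 and 1.42 CPM with lurbinectedin (log2 fold change 3.66, edgeR adjusted p = 4.83e-06). It reached the CPM cutoff of the expression filter in 0 of 6 libraries without lurbinectedin, so its call is tied to the filter. The next gene on that side, USF1, rose from 40.6 ± 0.750 to 96.9 ± 5.22 CPM (SD, n = 3; 1.26, edgeR adjusted p = 3.74e-06). On the side of the NECTIN4 promoter, KLHDC9, 8802 bases away, was at 0.23 (edgeR adjusted p = 0.482) and PFDN2 at 0.14 (edgeR adjusted p = 0.35).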
